A study of Mus musculus with 24 samples.

Results

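Obstruction of one ureter for 10 days changed most of the kidney transcriptome in both genotypes, and the question here was in which genes that response differed between the libraries labelled wild type and those labelled Pld4 knockout. The value examined for each gene was the interaction, (KO day 10 minus KO day 0) minus (WT day 10 minus WT day 0), on the log2 scale. It was taken over 16 of the 24 kidney mRNA libraries, 4 in each of 4 groups, and it was tested for 15080 of the 23955 gene symbols in the count table. The groups were wild type kidneys (PLD4+/+, called WT) without obstruction (day 0), kidneys labelled PLD4-/- (called KO, a name for the label throughout) at day 0, and both genotypes at day 10 after surgery that obstructed 1 ureter (unilateral ureteral obstruction), a model in which a blocked ureter leads to tubular injury, inflammation and fibrosis. Strain, age, sex, the kind of Pld4 allele and the litter are not given in the sources used here. The labels do not say that replicates came from separate animals, so p-values measure the spread between libraries. For the main results that spread was estimated in a fit to all 24 libraries, including those outside the 4 groups. The defining kidney markers Umod, Slc12a1, Slc34a1 and Aqp2 were all above 0 in each of the 4 groups.

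PLD4 is a member of the phospholipase D family that sits in endosomes and lysosomes of phagocytes and dendritic cells and works as an exonuclease on single-stranded nucleic acids. By cutting such molecules it limits the ligands that reach endosomal Toll-like receptors, whose signalling leads to type I interferon and inflammatory cytokines. In the obstructed kidney, macrophages, neutrophils and T cells enter, tubule cells lose their transport genes, and fibroblasts lay down collagen.

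Total counts of the 16 libraries ran from 9800888 to 17939743. WT day 10 replicates 2 and 3 stood apart from the other libraries on the second principal component, which held 9.45% of the variance. Their summed level of 9 neutrophil markers was 4120 to 6715 CPM (counts divided by the library total and scaled by TMM), against 26.6 to 27.4 CPM in WT day 10 replicates 1 and 4 and 11.7 to 22.4 CPM in KO day 10. Their 6 proximal tubule markers summed to 142 to 578 CPM, against 1923 to 5058 CPM in the other WT day 10 libraries and 1524 to 3634 CPM in KO day 10. KO day 0 replicate 4 held 11271 counts of Xist, where the other libraries held at most 8, and 0 to 5 counts of each of 4 Y-linked genes. Counts and calls that changed without these libraries are given beside the results below, and whether the libraries account for a result was not tested beyond those values.

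The interaction was called (adjusted p under 0.05, edgeR's quasi-likelihood test with Benjamini-Hochberg adjustment over all genes tested) in 490 genes, 3.25% of those tested. In 470 of them (3.12%) the response was lower in the libraries labelled KO, and in 20 (0.133%) it was higher. Most of the 470 rose in both genotypes but by less from day 0 to day 10 in KO: 344 rose in WT and in KO, 113 rose in WT and were not called in KO, 6 rose in WT and fell in KO, 6 fell in KO only, and 1 fell in both. The median interaction of the 490 genes was -2.45, from a median response of 4.05 in WT and 1.52 in KO, beside a median interaction of -0.04 over all genes tested. For comparison, 10267 genes (68.1%) changed from day 0 to day 10 in WT and 8193 (54.3%) in KO.

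Each interaction is exactly the KO minus WT difference at day 10 less the same difference at day 0, so it can be divided into a day 10 term and a day 0 term. The 3 comparisons share libraries, and the division is arithmetic rather than separate evidence. The day 0 term was called in 630 genes over the whole table (4.18%), 550 higher in KO (3.65%) and 80 lower (0.531%). The day 10 term was called in 212 (1.41%), 21 higher (0.139%) and 191 lower (1.27%). Among the 490 genes with a called interaction, only the day 0 term was called in 251 (237 with a lower and 14 with a higher response), only the day 10 term in 80, all lower, both terms in 4, and neither term alone in 155. The day 0 term was the larger in 348 of the 490, or 71.0%, beside 49.6% of all genes tested. Among called genes this share was 39.1% without WT day 10 replicate 4 and 50.7% without WT day 10 replicate 1. It was 70.6% to 84.5% without any 1 of the other 14 libraries. Of the 470 genes with a lower response, 435 had 4 KO day 0 values all above the 4 WT day 0 values, an arrangement that 10.5% of all tested genes showed with KO higher and 9.1% with KO lower. At day 10, 21 of the 470 had KO values all below the WT values, a larger share than the 1.87% of all tested genes. KO values were all above the WT values in 2 of the 470 and in 1.49% of all genes.

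**Figure D1:**
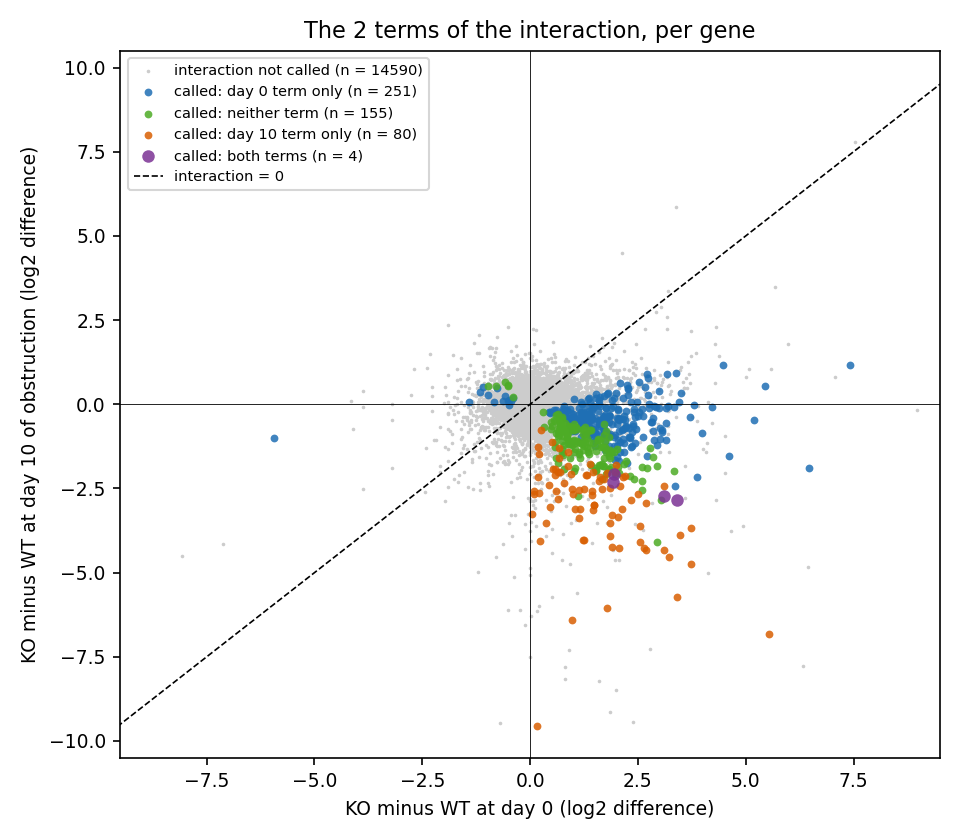
The KO minus WT log2 difference at day 0 (horizontal) and at day 10 (vertical) for each of the 15080 genes tested, with colours for the 490 genes with a called interaction by which term was itself called. Most coloured points lie to the right of 0 and below the dashed line: 251 through the day 0 term only, 80 through the day 10 term only.

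These counts differed widely between settings. When the 8 day 5 libraries were left out of the fit, 2 genes were called, Ptpru and Clec4a3, at almost the same fold changes, and 2307 genes had an unadjusted p under 0.05, against 2311 with them in. On log2(FPKM + 1) values 1 gene was called, Ptpru. DESeq2 called 849 genes, which held 487 of the 490. Without WT day 10 replicates 2 and 3, a setting added after the data were seen, 153 genes were called, 149 lower and 4 higher; 141 of them were among the 490, and all 490 kept their sign. Of those 153, the day 0 term alone was called in 151, the day 10 term in 0 and neither in 2. With KO day 0 replicate 4 left out, 331 genes were called, 147 through the day 0 term only and 53 through the day 10 term only. The count of 490 moved by more than 1.5 times in 7 of the 16 fits that left out 1 library: 246 without WT day 0 replicate 1, 312 without WT day 0 replicate 4, 320 without KO day 0 replicate 1, 324 without KO day 0 replicate 2, 997 without WT day 10 replicate 1, 1808 without WT day 10 replicate 4 and 281 without KO day 10 replicate 1.

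The 212 calls of the day 10 term became 19 with the replicate number as a block, 8 with the 4 groups alone, 5 with sample quality weights in limma voom, and 69 without WT day 10 replicates 2 and 3, of which 61 were higher in KO. Of 22 genes named here with a called day 10 term, S100a9 alone kept it with the block. On log2(FPKM + 1) it was called in 41 genes, of which 87.8% were higher in KO, against 9.91% of the 212, and the median of all genes shifted from -0.02 to 0.12. The count of 212 moved by more than 1.5 times in 7 of the 16 fits that left out 1 library: 1101 without WT day 10 replicate 1, 48 without WT day 10 replicate 2, 2045 without WT day 10 replicate 4, 23 without KO day 10 replicate 1, 31 without KO day 10 replicate 2, 33 without KO day 10 replicate 3 and 26 without KO day 10 replicate 4. Without WT day 10 replicate 3 the count stayed close, at 201, but the directions did not: 105 were higher in KO and 96 lower, against 21 and 191. The day 0 term was called in 371 genes without KO day 0 replicate 4 and in 1274 without WT day 10 replicates 2 and 3. The count of 630 moved by more than 1.5 times in 4 of the 16 fits that left out 1 library: 296 without WT day 0 replicate 1, 414 without WT day 0 replicate 2, 417 without WT day 0 replicate 4 and 371 without KO day 0 replicate 4.

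**Figure D2:**
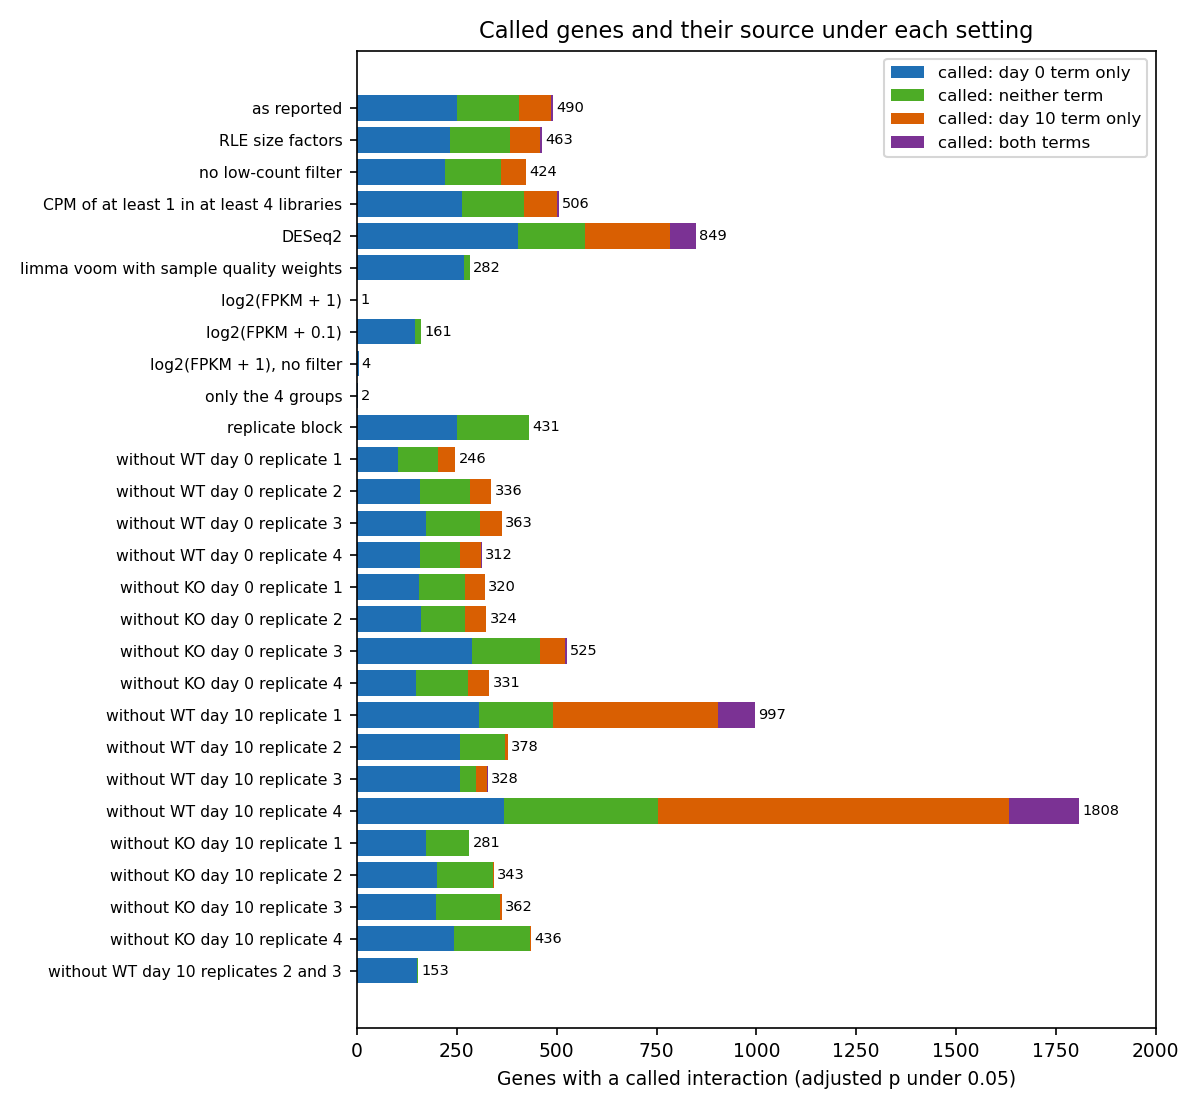
Number of genes with a called interaction under each setting (horizontal bars), divided by which term was called. The count as reported is 490, it falls to 2 with only the 4 groups, and the day 10 share disappears without WT day 10 replicates 2 and 3.

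Pld4 itself was not absent from the libraries labelled KO. Pld4 was at 5.1, 5.53, 7.89 and 8.25 CPM in WT day 0 and 12.6, 9.91, 8.68 and 6.7 CPM in KO day 0. After obstruction Pld4 was at 68.7, 85.4, 117 and 54.6 CPM in WT and 24.3, 36.1, 38.6 and 50.3 CPM in KO. At day 0 the groups overlapped, with KO replicates among the highest values, and at day 10 every KO value was below every WT value. The gene rose by 3.61 ± 0.30 (log2, SE from the fit to all 24 libraries, adjusted p = 4.65e-09) in WT and by 1.98 ± 0.28 (adjusted p = 1.03e-05) in KO, an interaction of -1.63 ± 0.39 (adjusted p = 0.023). The day 10 term was -1.13 ± 0.27 (adjusted p = 0.0331) and the day 0 term 0.50 ± 0.29 (adjusted p = 0.438). The interaction was -1.24 (adjusted p = 0.19) without WT day 10 replicates 2 and 3. Pld4 lost its call without any 1 of 5 libraries (WT day 0 replicates 1 and 2, KO day 0 replicate 1, WT day 10 replicate 3 and KO day 10 replicate 1), at -1.54 to -1.41 and an adjusted p of 0.0553 to 0.0682. Gene-level counts do not show which part of the transcript was read, so they do not check the deletion. Of the 7 tested members of the phospholipase D family, Pld4 was the only one called (beside 3.25% of all genes tested). Of 12 tested genes of the Pld4 neighbourhood, 2 were called (beside the same 3.25%). The other called gene was Adssl1, an adenylosuccinate synthase, at -2.34 ± 0.64 (adjusted p = 0.045). Adssl1 lost its call without any 1 of 14 libraries (all but WT day 10 replicates 1 and 4), at -2.50 to -1.79 and an adjusted p of 0.0531 to 0.129. Adssl1 was at -0.44 (adjusted p = 0.925) without WT day 10 replicates 2 and 3.

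**Figure D3:**
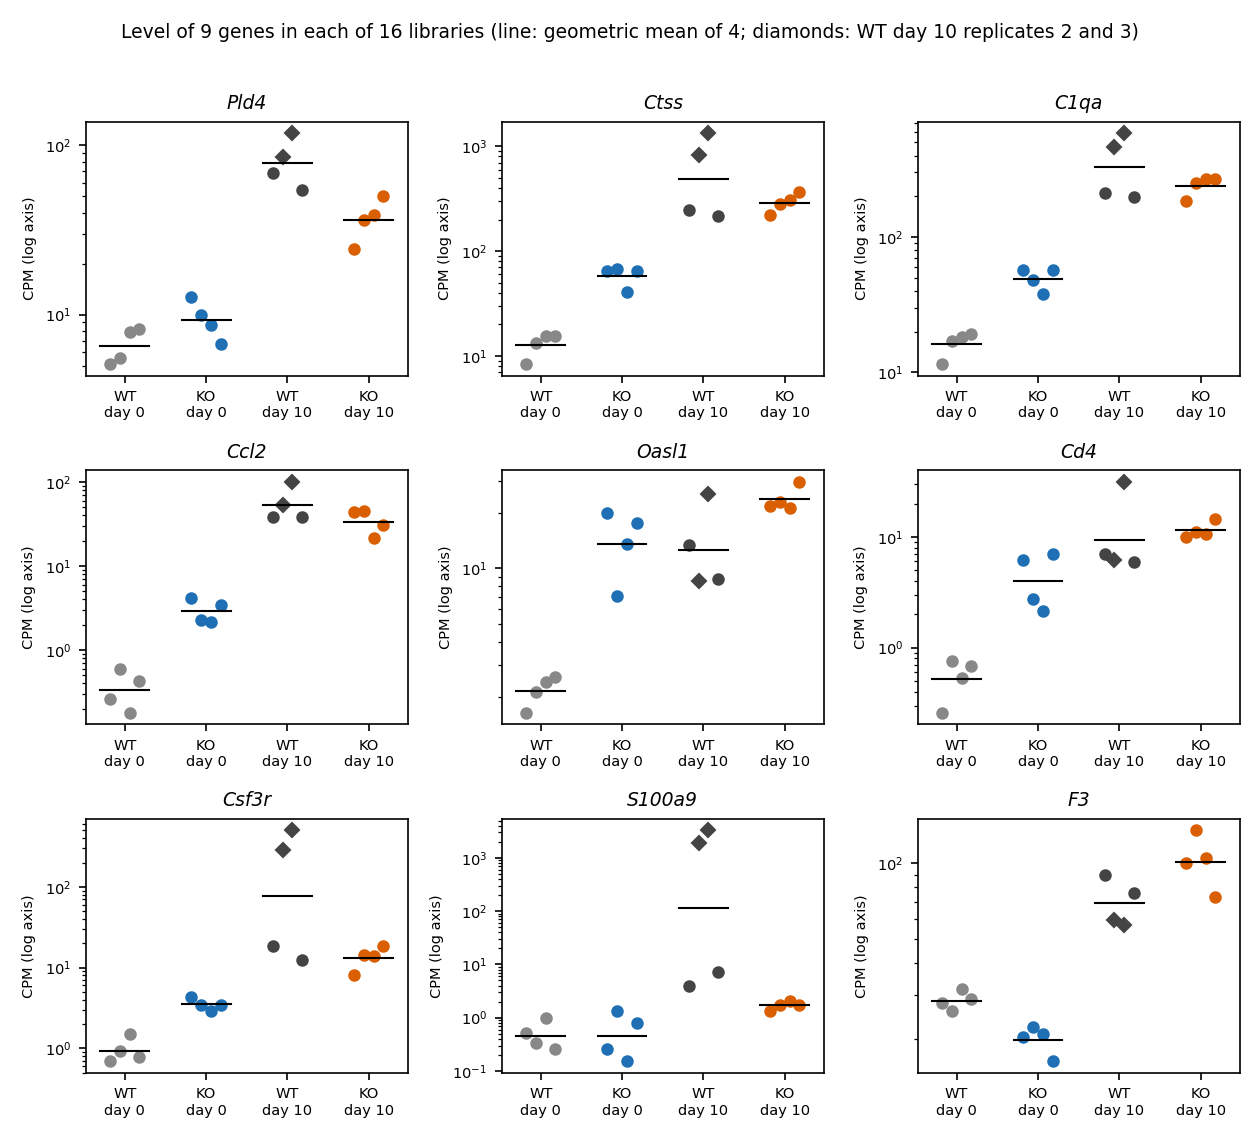
CPM (log axis) of 9 genes in each of the 16 libraries, with the geometric mean of the 4 libraries of a group as a line and WT day 10 replicates 2 and 3 as diamonds. Ctss, C1qa, Ccl2, Oasl1 and Cd4 are separated by genotype at day 0 and overlap at day 10, while Csf3r and S100a9 are high in the 2 diamonds alone.

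A list of nucleic acid sensing genes was followed next, because PLD4 acts on the ligands of the endosomal receptors in it. Of 19 tested members, 5 had a lower response in KO, beside 3.12% of all genes tested. They were Tlr7, Tlr8, Tlr13, Unc93b1 and Tmem173, the last an adaptor of cytosolic rather than endosomal sensing. At day 0, 4 of the 19 were higher in KO (beside 3.65%). At day 10, 0 were called by edgeR, where 9 had an unadjusted p under 0.05 and DESeq2 called 1. The list's median interaction was -0.61. Tlr7 encodes an endosomal receptor for single-stranded RNA. Tlr7 stood at 1.3, 1.7, 1.53 and 1.72 CPM in replicates 1 to 4 of WT day 0 and at 5.75, 4.77, 4.42 and 6.63 CPM in KO day 0, then at 11.4, 37.3, 44.7 and 23.1 CPM in WT day 10 and 13.3, 14.3, 15.7 and 20.8 CPM in KO day 10. The day 0 groups did not overlap and the day 10 groups did. Its interaction was -2.65 ± 0.43 (adjusted p = 0.00797), from a day 0 term of 1.79 ± 0.33 (adjusted p = 0.00288) and a day 10 term of -0.86 ± 0.28 (adjusted p = 0.134). Unc93b1, the chaperone that carries these receptors to endosomes, showed the same arrangement. Unc93b1 was at 22.8, 22.5, 23.9 and 22.9 CPM in WT day 0 and 56.7, 46.3, 39.2 and 48.6 CPM in KO day 0. After obstruction Unc93b1 was at 157, 253, 338 and 106 CPM in WT and 135, 156, 162 and 172 CPM in KO. Its day 0 term was 1.05 ± 0.23 (adjusted p = 0.00861), its day 10 term -0.45 ± 0.22 (adjusted p = 0.351) and its interaction -1.50 ± 0.32 (adjusted p = 0.0114). Without WT day 10 replicates 2 and 3 the interaction was -1.91 (adjusted p = 0.00906) for Tlr7 and -0.82 (adjusted p = 0.0558) for Unc93b1, so that of Unc93b1 was no longer called. Without KO day 0 replicate 4, 4 members had a called interaction and 2 a called day 0 term. Over the list, 2 interactions were called without WT day 10 replicates 2 and 3, and its median interaction was then -0.19.

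Type I interferon response genes were separated by genotype at day 0 and, with all libraries in the fit, largely not at day 10. All 25 listed members were tested. In all 25 the 4 KO day 0 values lay above the 4 WT day 0 values (beside 10.5% of all genes tested). Of them 24 were called higher in KO at day 0 (beside 3.65%), also without KO day 0 replicate 4. At day 10, 0 of 25 were called by edgeR, with 13 at an unadjusted p under 0.05 and 4 called by DESeq2. Without WT day 10 replicates 2 and 3, 13 of 25 were called higher in KO at day 10, beside 61 of all 15294 genes tested there. In that fit 23 of 25 had an unadjusted p under 0.05 at day 10, beside 666 of all genes. The medians that follow are with all libraries. The median was 1.95 for the day 0 term, 0.65 for the day 10 term and -1.15 for the interaction. A lower response in KO was called in 4 (beside 3.12% of all genes tested), Oas1a, Oas3, Oasl1 and Bst2, each through the day 0 term only. The interaction was called in 2 members without KO day 0 replicate 4, in 2 with the replicate block and in 1, Oasl1, without WT day 10 replicates 2 and 3. Oas1a was at -0.98 (adjusted p = 0.411) without those 2 libraries, and the list's median interaction was -0.60.

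Promoters of 3 of these 4 genes are shown because the interferon-stimulated response element is the known site through which such genes are switched on. The window of the other gene, Oasl1, held no match, which says only that these letters are not in it. Both strands of the RefSeq promoter windows (GRCm38.p6, 250 bases before to 50 after the annotated start) were searched for its core, GAAA and GAAA again after any 2 bases, and matches are in capitals. It was found in 10 of the 18 list members with a window, or 55.6%, beside 3.79% of 11253 tested genes with a window. Among genes with a lower response through the day 0 term only it was found in 25 of 174, or 14.4%.
Bst2 promoter, chr8:71537423-71537722, minus strand: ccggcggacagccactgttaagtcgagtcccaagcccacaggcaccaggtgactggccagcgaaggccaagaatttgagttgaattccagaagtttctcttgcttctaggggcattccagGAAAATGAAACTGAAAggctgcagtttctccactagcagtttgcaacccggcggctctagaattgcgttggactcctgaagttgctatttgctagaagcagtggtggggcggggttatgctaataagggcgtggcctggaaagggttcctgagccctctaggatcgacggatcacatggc
Oas1a promoter, chr5:120907476-120907775, minus strand: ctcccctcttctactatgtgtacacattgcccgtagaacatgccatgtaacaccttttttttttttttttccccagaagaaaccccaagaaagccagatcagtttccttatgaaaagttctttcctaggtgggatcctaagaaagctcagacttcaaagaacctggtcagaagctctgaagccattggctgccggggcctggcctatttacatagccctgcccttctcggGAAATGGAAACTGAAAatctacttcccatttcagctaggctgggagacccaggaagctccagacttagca
Oas3 promoter, chr5:120777610-120777909, minus strand: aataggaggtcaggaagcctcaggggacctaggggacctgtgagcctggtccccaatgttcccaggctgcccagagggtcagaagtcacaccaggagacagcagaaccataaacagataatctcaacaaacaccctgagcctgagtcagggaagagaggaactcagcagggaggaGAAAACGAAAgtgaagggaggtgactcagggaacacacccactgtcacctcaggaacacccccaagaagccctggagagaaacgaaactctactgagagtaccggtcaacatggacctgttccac
The Bst2 and Oas1a windows each hold 2 overlapping matches, which start at positions -130 and -124 in Bst2 and -20 and -14 in Oas1a from the annotated start, and the Oas3 window holds 1, at -75. A match is a description of the letters and not evidence of binding.

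Oas3 is an oligoadenylate synthetase, an enzyme that senses double-stranded RNA. Oas3 measured 0.259, 0.51, 0.179 and 0.688 CPM in WT day 0, 7.9, 3.22, 3.96 and 6.78 CPM in KO day 0, 3.7, 16.5, 52.7 and 4.5 CPM in WT day 10 and 10.1, 10.7, 14.5 and 24.1 CPM in KO day 10. KO was higher in all 4 day 0 libraries, and at day 10 WT replicate 3 held the highest value of all. Its day 0 term was 3.72 ± 0.79 (adjusted p = 0.008), its day 10 term -0.38 ± 0.57 (adjusted p = 0.767) and its interaction -4.10 ± 0.99 (adjusted p = 0.0229), or -1.88 (adjusted p = 0.268) without WT day 10 replicates 2 and 3. Oas3 lost its call without any 1 of 4 libraries (WT day 0 replicates 1 and 3, KO day 0 replicate 1 and KO day 10 replicate 1), at -3.96 to -3.86 and an adjusted p of 0.0517 to 0.0683. Bst2, which encodes the antiviral membrane protein tetherin, behaved likewise. Bst2 stood at 14.1, 14, 16.6 and 18.5 CPM in replicates 1 to 4 of WT day 0 and at 81, 53.8, 43.2 and 65.9 CPM in KO day 0, then at 60.3, 106, 208 and 53.2 CPM in WT day 10 and 104, 89, 120.1 and 169 CPM in KO day 10. Its day 0 term was 1.95 ± 0.34 (adjusted p = 0.00191), its day 10 term 0.17 ± 0.32 (adjusted p = 0.814) and its interaction -1.77 ± 0.47 (adjusted p = 0.0374), or -0.88 (adjusted p = 0.407) without those libraries. Bst2 lost its call without any 1 of 12 libraries (all but KO day 0 replicate 3, WT day 10 replicates 1 and 4 and KO day 10 replicate 4), at -1.86 to -1.24 and an adjusted p of 0.0561 to 0.0893. Oasl1, an oligoadenylate synthetase-like protein, rose by 2.67 ± 0.34 (adjusted p = 1.24e-06) in WT and by 0.71 ± 0.30 (adjusted p = 0.0533) in KO. Oasl1 measured 1.64, 2.13, 2.42 and 2.58 CPM in WT day 0, 20, 7.04, 13.6 and 17.7 CPM in KO day 0, 13.5, 8.52, 25.4 and 8.73 CPM in WT day 10 and 21.9, 23, 21.5 and 29.6 CPM in KO day 10. The KO day 0 range overlapped the WT day 10 range. Oasl1 lost its call without WT day 0 replicate 1, at -1.84 and an adjusted p of 0.058. Without WT day 10 replicates 2 and 3, 13 of the 25 members were called higher in KO at day 10 and the list's day 10 median was 1.15.

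Macrophage genes had more called members than any other list. Of 22 tested members, 15 had a lower response in KO (beside 3.12% of all genes tested). At day 0, 11 were higher in KO (beside 3.65%), and at day 10, 9 were lower (beside 1.27%). The medians were 1.62 for the day 0 term, -1.15 for the day 10 term and -3.08 for the interaction. The 7 macrophage markers found in the table summed to 144 to 213 CPM in WT day 0, 267 to 354 CPM in KO day 0, 863 to 937 CPM in WT day 10 replicates 1 and 4, 2114 to 2584 CPM in WT day 10 replicates 2 and 3, and 865 to 1156 CPM in KO day 10. In bulk kidney, fewer cells of a type and less RNA per cell cannot be told apart. Without WT day 10 replicates 2 and 3, 12 members had a called interaction, 0 were called at day 10 by edgeR (5 at an unadjusted p under 0.05), and the day 10 median was 0.14. With the replicate block 15 were called in the interaction and 0 at day 10, where 14 had an unadjusted p under 0.05. Without KO day 0 replicate 4, 13 were called in the interaction and 10 at day 0.

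Ctss is the gene of cathepsin S, a lysosomal protease of antigen-presenting cells. Ctss stood at 8.39, 13.2, 15.4 and 15.5 CPM in replicates 1 to 4 of WT day 0 and at 64.7, 67.4, 40.6 and 65.3 CPM in KO day 0, then at 247, 826, 1332 and 217 CPM in WT day 10 and 220.3, 280.2, 308 and 366 CPM in KO day 10. All KO day 0 values exceeded all WT day 0 values, and at day 10 the KO values lay between those of the WT replicates. The day 0 term was 2.18 ± 0.40 (adjusted p = 0.00278), the day 10 term -1.16 ± 0.38 (adjusted p = 0.148), and the interaction -3.34 ± 0.56 (adjusted p = 0.00797), or -1.86 (adjusted p = 0.00228) without the 2 WT day 10 libraries. The Ctss promoter is shown because it holds a core that the macrophage factor PU.1 is known to bind, GAGGAAGT, which both strands of the same RefSeq windows were searched for.
Ctss promoter, chr3:95526536-95526835, plus strand: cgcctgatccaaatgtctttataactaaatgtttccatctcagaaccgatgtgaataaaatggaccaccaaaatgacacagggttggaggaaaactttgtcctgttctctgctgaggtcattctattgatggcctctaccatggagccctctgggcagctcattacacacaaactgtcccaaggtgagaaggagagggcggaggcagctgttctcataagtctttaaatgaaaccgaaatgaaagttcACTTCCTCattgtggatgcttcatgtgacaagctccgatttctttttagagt
The capitals mark the match, which lies on the other strand and starts at position -2. The windows of Ccr2 and Lyz2, also searched for display, held no match, which says only that these letters are not in them. C1qa had no window. The core was found in 3 of the 15 macrophage list members with a window, in 19 of 174 genes with a lower response through the day 0 term only (10.9%), and in 3.79% of tested genes with a window.

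C1qa, a chain of the complement starter C1q that kidney macrophages make, followed the same course. C1qa was at 11.5, 16.9, 18.2 and 19.3 CPM in WT day 0 and 56.9, 47.9, 38.2 and 56.8 CPM in KO day 0. After obstruction C1qa was at 212, 461, 584 and 198 CPM in WT and 183, 251, 269.8 and 267 CPM in KO. Its day 0 term was 1.60 ± 0.27 (adjusted p = 0.00155), its day 10 term -0.59 ± 0.26 (adjusted p = 0.302) and its interaction -2.18 ± 0.38 (adjusted p = 0.00797), or -1.38 (adjusted p = 0.0101) without the 2 libraries. Of the 18 tested complement genes, 8 had a lower response in KO (C1qa, C1qb, C1qc, C1ra, C3, Cfp and the receptors C3ar1 and C5ar1), beside 3.12% of all genes tested. At day 0, 10 were higher in KO (beside 3.65%), and at day 10, 2 were lower (beside 1.27%). The complement median interaction was -1.25. Of these genes 6 had a called interaction without WT day 10 replicates 2 and 3 and 0 were called at day 10 by edgeR, with 4 at an unadjusted p under 0.05. The replicate block also left 0 at day 10, with 5 at an unadjusted p under 0.05. Ccr2, the chemokine receptor of monocytes that enter inflamed tissue, had a day 0 term of 1.50 ± 0.25 (adjusted p = 0.00129), a day 10 term of -0.40 ± 0.22 (adjusted p = 0.422) and an interaction of -1.90 ± 0.33 (adjusted p = 0.00797). Ccr2 measured 3.98, 5.44, 6.01 and 5.76 CPM in WT day 0, 16.4, 17.5, 12.3 and 13.9 CPM in KO day 0, 116, 181, 105 and 69.9 CPM in WT day 10 and 72.8, 96.8, 86.2 and 101 CPM in KO day 10. Ccl2 encodes the ligand of this receptor. Ccl2 values were 0.259, 0.595, 0.179 and 0.43 CPM (WT) and 4.21, 2.27, 2.13 and 3.43 CPM (KO) without obstruction. With it, Ccl2 values were 38.5, 53.6, 100.5 and 38.7 CPM (WT) and 43.5, 45.7, 21.6 and 30.5 CPM (KO). No WT day 0 library exceeded 0.595 CPM and no KO day 0 library was under 2.13 CPM, while the day 10 groups overlapped. The interaction of Ccl2 was -3.72 ± 0.62 (adjusted p = 0.00797), or -3.16 (adjusted p = 0.0113) without the 2 libraries. Clec4a3, a C-type lectin receptor of myeloid cells, had the second lowest adjusted p of all genes, with an interaction of -3.70 ± 0.50 (adjusted p = 0.00171) and a day 10 term of -0.56 ± 0.29 (adjusted p = 0.382). Clec4a3 stood at 0.865, 0.595, 0.449 and 0.859 CPM in replicates 1 to 4 of WT day 0 and at 7.99, 6.45, 4.95 and 5.38 CPM in KO day 0, then at 22.7, 54.6, 55 and 17.4 CPM in WT day 10 and 18, 23.1, 26.7 and 33.6 CPM in KO day 10.

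Chemokine genes divided between the days. Of 24 tested, 8 had a lower response in KO (beside 3.12% of all genes tested). Ccl2, Ccl5, Ccl7 and Ccl12 were called through the day 0 term only, and Ccl3, Ccl4, Ccl6 and Ccl9 through the day 10 term only. Ccl7, another monocyte attractant, was at 0 counts in all 4 WT day 0 libraries and held 32 counts over the 4 KO day 0 libraries, so that its level was at least 10.7-fold higher in KO at day 0 when 3 counts over the 4 libraries are taken as the floor. Ccl6 was at 1.38, 2.72, 2.51 and 2.92 CPM in WT day 0 and 9.36, 8.12, 4.49 and 5.07 CPM in KO day 0. After obstruction Ccl6 was at 48.6, 603, 255 and 42.9 CPM in WT and 23.6, 29.9, 28.6 and 38.5 CPM in KO. Ccl6, a myeloid CC chemokine, was higher in every WT day 10 library than in any KO one. Its day 10 term was -2.98 ± 0.56 (adjusted p = 0.0121), its day 0 term 1.49 ± 0.63 (adjusted p = 0.24), and its interaction -4.47 ± 0.84 (adjusted p = 0.00838), or -2.11 (adjusted p = 0.00635) without WT day 10 replicates 2 and 3, where the day 10 term was -0.61 (adjusted p = 0.836). Without those 2 libraries 6 chemokine genes had a called interaction and 0 a called day 10 term, with 10 at an unadjusted p under 0.05 at day 10. With all libraries 7 were called at day 10, lower in KO, by edgeR (beside 1.27% of all genes tested) and 11 by DESeq2. With the replicate block 0 were called at day 10, where 14 had an unadjusted p under 0.05. Without KO day 0 replicate 4, 8 had a called interaction and 3 a called day 0 term.

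T cell genes were higher in KO at day 0. Of 17 tested T cell genes, 11 were higher in KO at day 0 (beside 3.65% of all genes tested). In 16 the day 0 groups did not overlap, with KO higher (beside 10.5%). A lower response was called in 3, Cd3g, Cd4 and Cd2 (beside 3.12%), and 2 were higher in KO at day 10 (beside 0.139%). The median day 0 term was 2.60, the median day 10 term -0.05 and the median interaction -2.48. The median day 10 term was 1.05 and the median interaction -1.51 without WT day 10 replicates 2 and 3, with 0 called by edgeR in either, 13 at an unadjusted p under 0.05 at day 10 and 9 in the interaction. With the replicate block 1 interaction was called and 0 day 10 terms, of which 2 had an unadjusted p under 0.05. The 5 T cell markers summed to 3.40 to 7.73 CPM in WT day 0 and to 17.6 to 33.0 CPM in KO day 0. Without KO day 0 replicate 4, 6 members were called at day 0 and 0 in the interaction, where 14 had an unadjusted p under 0.05; with all libraries DESeq2 called 11 interactions. Cd4 encodes the coreceptor of helper T cells. Cd4 measured 0.259, 0.765, 0.538 and 0.688 CPM in WT day 0, 6.18, 2.75, 2.13 and 6.94 CPM in KO day 0, 6.97, 6.14, 31.4 and 5.98 CPM in WT day 10 and 10.1, 11.1, 10.6 and 14.6 CPM in KO day 10. WT day 10 replicate 3 was far above the other 3 WT day 10 libraries, all of which were below all 4 KO day 10 libraries. The interaction was -3.11 ± 0.74 (adjusted p = 0.0216). Cd4 lost its call without any 1 of 3 libraries (WT day 0 replicate 1 and KO day 0 replicates 1 and 4), at -2.92 to -2.81 and an adjusted p of 0.0509 to 0.0682. With WT day 10 replicates 2 and 3 left out it was -2.17 (adjusted p = 0.067).

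Cytotoxic cell genes had a median day 0 term of 2.66 over 13 tested members, 8 of them called higher in KO (beside 3.65% of all genes tested). A lower response was called in 3 (beside 3.12%), Nkg7, Gzmb and Ccl5. Neither of these list counts changed without KO day 0 replicate 4. With the replicate block 2 interactions were called, and 2 also without WT day 10 replicates 2 and 3. Nkg7, a granule membrane protein of natural killer and cytotoxic T cells, was nearly absent from WT day 0. Nkg7 stood at 0.0865, 0.34, 0.628 and 0 CPM in replicates 1 to 4 of WT day 0 and at 7.13, 5.61, 3.88 and 7.09 CPM in KO day 0, then at 2.99, 1.62, 10.8 and 3.54 CPM in WT day 10 and 7.46, 10.2, 11 and 13.6 CPM in KO day 10. The KO day 0 values were as high as several WT day 10 values. Its interaction was -3.30 ± 0.80 (adjusted p = 0.0236), or -2.80 (adjusted p = 0.0391) without the 2 WT day 10 libraries. Nkg7 lost its call without any 1 of 3 libraries (WT day 0 replicates 1 and 4 and KO day 10 replicate 1), at -3.18 to -2.89 and an adjusted p of 0.0537 to 0.0754. Of 16 dendritic cell genes, 11 were higher in KO at day 0 (beside 3.65% of all genes tested) and 1 was higher at day 10 (beside 0.139%). A lower response was called in 3 (beside 3.12%), Itgax, Ccr7 and Cd74. Itgax, the integrin CD11c, had an interaction of -2.15 ± 0.38 (adjusted p = 0.00797) and a day 10 term of -0.37 ± 0.25 (adjusted p = 0.503). Itgax measured 1.73, 3.23, 3.14 and 2.23 CPM in WT day 0, 10.8, 8.24, 6.86 and 9.74 CPM in KO day 0, 33.5, 21.1, 70.2 and 36.8 CPM in WT day 10 and 27.2, 32.3, 29.3 and 36.2 CPM in KO day 10. Its call held in each of the 16 fits that left out 1 library. B and plasma cell genes had 0 called interactions by edgeR and by DESeq2, with 4 of 12 at an unadjusted p under 0.05.

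**Figure D4:**
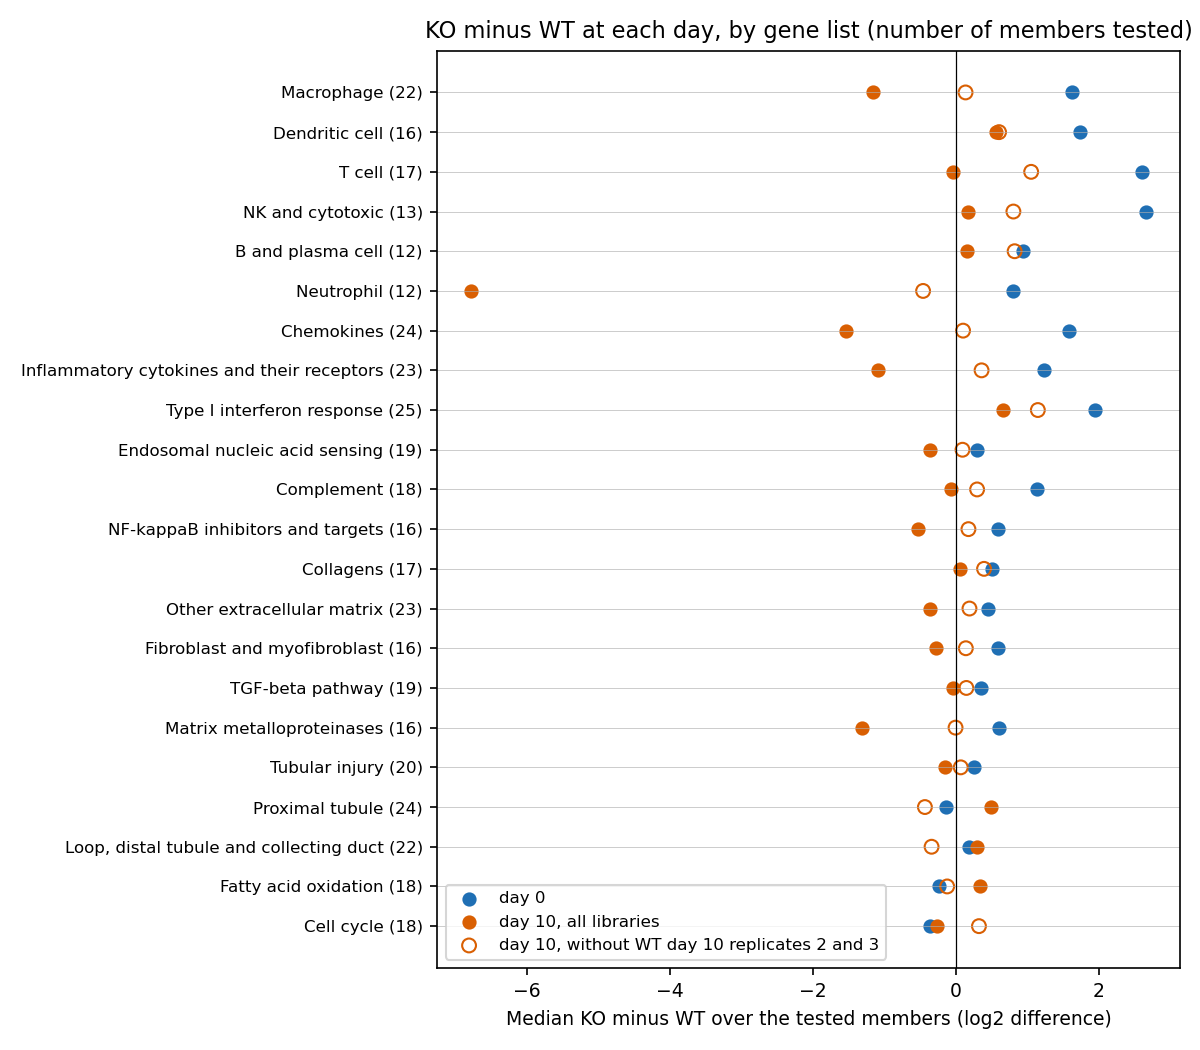
Median KO minus WT log2 difference of the tested members of 22 gene lists at day 0 (blue), at day 10 (orange, filled) and at day 10 without WT day 10 replicates 2 and 3 (open). The neutrophil median moves from -6.78 to -0.46 and the macrophage median from -1.15 to 0.14 when those libraries are left out.

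Neutrophil genes had the largest day 10 differences of the lists, and these rested on 2 libraries. Of 12 tested neutrophil genes, 9 were lower in KO at day 10 (beside 1.27% of all genes tested). At day 0, 0 were called by edgeR (0 at an unadjusted p under 0.05, and 1 by DESeq2). A lower response was called in 3 (beside 3.12%), S100a9, Csf3r and Fpr2. The medians were -6.78 for the day 10 term, 0.79 for the day 0 term and -7.86 for the interaction. With the replicate block 6 were called at day 10 and 1 in the interaction, against 11 and 10 by DESeq2. S100a9 encodes a calcium-binding protein that fills neutrophil cytoplasm. S100a9 values were 0.519, 0.34, 0.987 and 0.258 CPM (WT) and 0.258, 1.31, 0.152 and 0.78 CPM (KO) without obstruction. With it, S100a9 values were 3.93, 1933, 3278 and 7.25 CPM (WT) and 1.35, 1.71, 2.1 and 1.71 CPM (KO). WT day 10 replicates 2 and 3 were far above all other libraries, and the other WT day 10 libraries were still above the KO ones. The day 10 term was -9.56 ± 1.52 (adjusted p = 0.00479) and the interaction -9.71 ± 2.52 (adjusted p = 0.0351), or -1.88 (adjusted p = 0.555) without the 2 libraries. S100a9 lost its call without any 1 of 10 libraries (all but WT day 0 replicate 3, KO day 0 replicate 3, WT day 10 replicates 1 and 4 and KO day 10 replicates 3 and 4), at -9.97 to -8.70 and an adjusted p of 0.0527 to 0.14. Csf3r, the receptor for granulocyte colony-stimulating factor, was also high in the same 2 libraries, and in the other WT day 10 libraries it was close to or within the KO range. Csf3r was at 0.692, 0.935, 1.53 and 0.773 CPM in WT day 0 and 4.38, 3.46, 2.89 and 3.43 CPM in KO day 0. After obstruction Csf3r was at 18.6, 289, 499.6 and 12.5 CPM in WT and 8.11, 14.2, 13.8 and 18.4 CPM in KO. Its interaction was -5.75 ± 1.15 (adjusted p = 0.0101), and without the 2 libraries -2.06 (adjusted p = 0.013), with a day 10 term of -0.20 (adjusted p = 1) and a day 0 term of 1.86 (adjusted p = 0.000201). Without the 2 libraries 0 of the neutrophil genes were called at day 10 by edgeR, with 5 at an unadjusted p under 0.05, and 1 in the interaction.

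Several protease and cytokine genes were highest in the same 2 libraries. Mmp9, a gelatinase stored in neutrophil granules, was above KO in all 4 WT day 10 libraries, but by a wide margin in only 2. Mmp9 measured 0.259, 0.255, 0.359 and 0.258 CPM in WT day 0, 0.773, 0.716, 0.762 and 1.64 CPM in KO day 0, 3.18, 229, 359 and 2.8 CPM in WT day 10 and 2.0, 2.24, 2.69 and 2.05 CPM in KO day 10. Its interaction was -7.83 ± 1.91 (adjusted p = 0.0252), or -2.21 (adjusted p = 0.208) without those libraries. Mmp9 lost its call without any 1 of 3 libraries (WT day 0 replicates 1 and 4 and KO day 0 replicate 4), at -7.79 to -7.43 and an adjusted p of 0.0509 to 0.102. Mmp13, a collagenase, had an interaction of -5.26 ± 1.18 (adjusted p = 0.0151) which was -1.45 (adjusted p = 0.409) without them. Mmp13 stood at 1.21, 2.64, 1.61 and 1.55 CPM in replicates 1 to 4 of WT day 0 and at 2.75, 5.73, 2.82 and 5.22 CPM in KO day 0, then at 2.65, 117, 27 and 2.54 CPM in WT day 10 and 2.47, 2.54, 1.51 and 2.51 CPM in KO day 10. Of 16 tested matrix metalloproteinase genes, 5 were lower in KO at day 10 (beside 1.27% of all genes tested) and 2 had a lower response (beside 3.12%). These counts were 1 and 0 by edgeR without WT day 10 replicates 2 and 3, with 3 interactions at an unadjusted p under 0.05, and with the replicate block they were 2 and 3. Without KO day 0 replicate 4 they were 4 and 1. Tnf, the inflammatory cytokine, had an interaction of -5.88 ± 1.39 (adjusted p = 0.0204) with neither term called. Tnf was at 0, 0.17, 0.0897 and 0.344 CPM in WT day 0 and 1.63, 0.955, 1.22 and 1.33 CPM in KO day 0. After obstruction Tnf was at 3.08, 14.1, 78.9 and 2.38 CPM in WT and 1.88, 2.89, 4.25 and 4.55 CPM in KO. Without the 2 WT libraries it was -2.73 (adjusted p = 0.129). Tnf lost its call without WT day 0 replicate 1, at -5.48 and an adjusted p of 0.0592. Of 23 cytokine and receptor genes tested, 6 had a lower response (Il1b, Il1rn, Il33, Tnf, Tnfrsf1b and Osmr), beside 3.12% of all genes tested. At day 10, 4 were lower (beside 1.27%) and 1 higher in KO (beside 0.139%), and 3 were higher at day 0 (beside 3.65%). An interaction was called in 2 of the 23 without WT day 10 replicates 2 and 3, and at day 10 0 were called lower and 1 higher, with 8 at an unadjusted p under 0.05. The replicate block left 2 called at day 10. Osmr, the receptor subunit for oncostatin M, had a day 0 term of 1.36 ± 0.29 (adjusted p = 0.00728) and an interaction of -1.73 ± 0.39 (adjusted p = 0.0156), or -1.21 (adjusted p = 0.115) without the 2 libraries.

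Of the 80 genes called through the day 10 term only, 25 kept a called interaction without WT day 10 replicates 2 and 3, none of the 80 had a called day 10 term there, and their median day 10 term went from -2.64 to -0.10. Of the 251 called through the day 0 term only, 98 kept a called interaction, and of the 155 with neither term called, 14 did. Tgfbi, a TGF-beta-induced matrix protein that macrophages also make, was 1 of the 25. Tgfbi values were 10.7, 12.8, 15.8 and 13.2 CPM (WT) and 38.7, 36.4, 29.4 and 39.1 CPM (KO) without obstruction. With it, Tgfbi values were 100.1, 814, 847 and 93 CPM (WT) and 105, 107, 125 and 124 CPM (KO). Its interaction was -3.46 ± 0.67 (adjusted p = 0.00945) and its day 10 term -2.01 ± 0.47 (adjusted p = 0.0313). Without the 2 libraries the interaction was -1.21 (adjusted p = 0.00167), the day 10 term 0.24 (adjusted p = 1) and the day 0 term 1.46 (adjusted p = 1.12e-07).

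In 4 genes both terms were called, Cd53, Lyz2, Ms4a6d and Pilra, and all 4 kept a called interaction without the 2 libraries. Lyz2 encodes lysozyme of macrophages and neutrophils. Lyz2 stood at 13.7, 19.3, 31.1 and 24.1 CPM in replicates 1 to 4 of WT day 0 and at 109, 99.5, 60.2 and 65.7 CPM in KO day 0, then at 520.2, 2719.8, 5457 and 501 CPM in WT day 10 and 344, 493, 457 and 569 CPM in KO day 10. KO was higher in all 4 libraries at day 0, whereas at day 10 KO overlapped WT replicates 1 and 4 and lay far below replicates 2 and 3. Its terms were 1.92 ± 0.52 (adjusted p = 0.0389) at day 0 and -2.30 ± 0.53 (adjusted p = 0.0279) at day 10, and its interaction -4.23 ± 0.74 (adjusted p = 0.00797), or -2.07 (adjusted p = 0.00846) without the 2 libraries. Ms4a6d, a membrane protein of the MS4A family in macrophages, had terms of 3.41 ± 0.89 (adjusted p = 0.03) and -2.85 ± 0.62 (adjusted p = 0.0221) and an interaction of -6.26 ± 1.07 (adjusted p = 0.00797), or -3.21 (adjusted p = 0.00167) without them. Ms4a6d was at 0.259, 0.595, 0.359 and 0.688 CPM in WT day 0 and 6.44, 6.33, 4.11 and 3.9 CPM in KO day 0. After obstruction Ms4a6d was at 13.2, 231, 223 and 15.4 CPM in WT and 9.58, 17, 18.1 and 22 CPM in KO.

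The gene with the lowest adjusted p was Ptpru, a receptor-type protein tyrosine phosphatase. Ptpru measured 14.4, 16.7, 19.3 and 15.1 CPM in WT day 0, 48.9, 43.4, 40.2 and 39 CPM in KO day 0, 21.9, 23.5, 23.6 and 18.6 CPM in WT day 10 and 16.9, 16.4, 15.6 and 16.2 CPM in KO day 10. At day 0 every KO value was more than 2-fold above every WT value, and at day 10 every KO value was below every WT value. It rose by 0.42 ± 0.16 (adjusted p = 0.0261) in WT and fell by 1.40 ± 0.16 (adjusted p = 9.42e-07) in KO, an interaction of -1.82 ± 0.23 (adjusted p = 0.00114). It was called in all 27 other settings, including log2(FPKM + 1), the 4 groups alone and the fit without WT day 10 replicates 2 and 3, where it was -1.72 (adjusted p = 0.00221). Serpina10, an inhibitor of coagulation proteases, had the third lowest adjusted p. Serpina10 values were 1.56, 2.64, 2.51 and 2.23 CPM (WT) and 28.3, 45.2, 17.4 and 7.41 CPM (KO) without obstruction. With it, Serpina10 values were 94, 90.1, 132 and 113 CPM (WT) and 86.3, 96.2, 126 and 139 CPM (KO). Its KO day 0 values were spread over several fold but all lay above WT, and the day 10 groups overlapped, which gave an interaction of -3.38 ± 0.49 (adjusted p = 0.00438), a day 0 term of 3.45 ± 0.39 (adjusted p = 4.44e-05) and a day 10 term of 0.06 ± 0.32 (adjusted p = 0.934).

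Ptpru was 1 of 6 genes called as risen in WT and fallen in KO, the others being Hdc, Arntl, Npr1, Esm1 and Adssl1. Esm1, an endothelial proteoglycan, was at -1.42 (adjusted p = 0.0434), at -1.37 (adjusted p = 0.0646) with the replicate block and at -1.03 (adjusted p = 0.0627) without WT day 10 replicates 2 and 3. Esm1 lost its call without any 1 of 12 libraries (all but KO day 0 replicate 2 and WT day 10 replicates 1, 3 and 4), at -1.47 to -0.91 and an adjusted p of 0.0628 to 0.108. Npr1, the receptor guanylyl cyclase for atrial natriuretic peptide, had a small interaction, -0.70 ± 0.15 (adjusted p = 0.0134), from 0.33 ± 0.11 (adjusted p = 0.0106) in WT and -0.37 ± 0.11 (adjusted p = 0.00628) in KO. Npr1 was at 26.7, 35.5, 35.5 and 26.1 CPM in WT day 0 and 39.4, 44, 38.5 and 47.9 CPM in KO day 0. After obstruction Npr1 was at 36.9, 41.1, 42.4 and 35.3 CPM in WT and 36, 29.6, 31.8 and 33.6 CPM in KO. The day 0 groups did not overlap. Without the 2 WT day 10 libraries it was -0.61 (adjusted p = 0.0891). Arntl, a core gene of the circadian clock, had an interaction of -2.29 ± 0.46 (adjusted p = 0.0101), or -1.60 (adjusted p = 0.0729) without them. Arntl measured 4.41, 4.93, 6.91 and 2.75 CPM in WT day 0, 22.8, 15, 18.6 and 8.26 CPM in KO day 0, 6.4, 11.2, 13.1 and 4.18 CPM in WT day 10 and 6.29, 6.96, 5.7 and 5.18 CPM in KO day 10. The time of day of collection is not given in the sources used here. Of the 16 tested clock genes 1 had a called interaction (beside 3.25% of all genes tested), against 2 by DESeq2. Without KO day 0 replicate 4, 3 had a called interaction and 4 a called day 0 term, against 2 day 0 terms with all libraries. Hdc, the histamine-forming enzyme of mast cells and basophils, had the largest interaction of the named genes, -12.36 ± 2.38 (adjusted p = 0.00945), and it rested on 3 libraries. Hdc values were 0.259, 0.34, 0.449 and 0.516 CPM (WT) and 0.773, 0.716, 0.457 and 71.5 CPM (KO) without obstruction. With it, Hdc values were 1.23, 311, 199 and 0.899 CPM (WT) and 0.764, 1.18, 1.24 and 1.31 CPM (KO). KO day 0 replicate 4, the library with Xist counts, held 71.5 CPM where the other KO day 0 libraries held less than 1. Hdc lost its call without KO day 0 replicate 4, at -7.51 and an adjusted p of 0.139. The value for Hdc was -5.49 (adjusted p = 0.263) with WT day 10 replicates 2 and 3 left out.

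Nearly all of the 20 genes with a higher response in KO had lower KO values at day 0. In 14 only the day 0 term was called and in 6 neither. KO day 0 values were all below WT in 19 (beside 9.1% of all genes tested). In KO 10 rose (beside 28.3%) and in WT 11 fell (beside 30.3%). The interaction subtracts the day 0 term, so low KO values at day 0 enter the choice of these genes. Chpf, a subunit of chondroitin polymerase, had the lowest adjusted p of them. Chpf was at 30.6, 31.2, 32.7 and 31.3 CPM in WT day 0 and 20.7, 18.7, 20.5 and 21.3 CPM in KO day 0. After obstruction Chpf was at 56.8, 55.9, 47.7 and 42.2 CPM in WT and 56.3, 59.8, 56.4 and 45.6 CPM in KO. The day 0 groups were separated and the day 10 groups overlapped, for a day 0 term of -0.63 ± 0.10 (adjusted p = 0.0012), a day 10 term of 0.11 ± 0.10 (adjusted p = 0.639) and an interaction of 0.74 ± 0.14 (adjusted p = 0.00992), or 0.75 (adjusted p = 0.0319) without WT day 10 replicates 2 and 3. F3, the gene of tissue factor, which starts coagulation, had an interaction of 1.06 ± 0.23 (adjusted p = 0.0136) with neither term called. F3 measured 27.8, 25.8, 31.5 and 28.7 CPM in WT day 0, 20.3, 22.3, 20.9 and 16.3 CPM in KO day 0, 89.9, 59.5, 56.6 and 76.2 CPM in WT day 10 and 101, 135, 105 and 73.4 CPM in KO day 10. It rose by 1.31 ± 0.17 (adjusted p = 1.02e-06) in WT and by 2.37 ± 0.17 (adjusted p = 4.35e-09) in KO. Without the 2 libraries it was 0.81 (adjusted p = 0.124). Zfp810, a zinc finger gene, fell by 1.08 ± 0.21 (adjusted p = 0.000134) in WT and was not called in KO, at 0.17 ± 0.21 (adjusted p = 0.517), an interaction of 1.24 ± 0.30 (adjusted p = 0.0209). Zfp810 lost its call without any 1 of 3 libraries (WT day 0 replicate 1, KO day 0 replicate 4 and WT day 10 replicate 3), at 1.12 to 1.16 and an adjusted p of 0.0529 to 0.0639. Zfp810 was at 0.87 (adjusted p = 0.139) without WT day 10 replicates 2 and 3. Serpina1c, a member of a family of near-identical alpha-1-antitrypsin genes, was also called higher, but it held 2 counts over the KO day 0 group and its reads could belong to its copies. Serpina1a, of the same family, was called lower in KO on both days and was not called in the interaction. Serpina1a stood at 18.8, 24.4, 59 and 23 CPM in replicates 1 to 4 of WT day 0 and at 0.172, 0.239, 0.152 and 0.312 CPM in KO day 0, then at 17, 0.507, 0.544 and 28.1 CPM in WT day 10 and 0.999, 0.708, 0.269 and 0.626 CPM in KO day 10. Its terms were -7.12 ± 1.08 (adjusted p = 0.000619) at day 0 and -4.15 ± 0.88 (adjusted p = 0.0176) at day 10. WT day 10 replicates 2 and 3 lay within the KO day 10 range. The day 10 term was -3.89 (adjusted p = 0.0763) with the replicate block and -5.12 (adjusted p = 6.38e-07) without those 2 libraries. These values carry the same uncertainty about copies.

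Among 16 tested NF-kappaB inhibitors and targets, 2 had a lower response in KO (beside 3.12% of all genes tested), Nfkbia and Birc3. Neither of these was called in KO minus WT at either day. Without KO day 0 replicate 4, 0 interactions were called by edgeR, with 8 at an unadjusted p under 0.05. By edgeR 0 were called without WT day 10 replicates 2 and 3 and 1 had an unadjusted p under 0.05, and with the replicate block 1 was called. Birc3, an inhibitor of apoptosis, had an interaction of -1.54 ± 0.39 (adjusted p = 0.0336). Birc3 lost its call without any 1 of 12 libraries (all but KO day 0 replicate 3, WT day 10 replicates 1 and 4 and KO day 10 replicate 2), at -1.58 to -1.23 and an adjusted p of 0.0512 to 0.0893. Birc3 was at -0.76 (adjusted p = 0.402) without WT day 10 replicates 2 and 3. Of 20 tubular injury genes, 3 had a lower response (beside 3.12% of all genes tested). Vcam1, an adhesion molecule of injured tubule cells and endothelium, was 1 of the 3. Vcam1 measured 6.31, 8.93, 7.98 and 11.9 CPM in WT day 0, 30, 33.9, 20.2 and 31.6 CPM in KO day 0, 453, 315, 649 and 299 CPM in WT day 10 and 551, 601, 433 and 454 CPM in KO day 10. Its interaction was -1.47 ± 0.34 (adjusted p = 0.0173), from a day 0 term of 1.71 ± 0.25 (adjusted p = 0.000371) and a day 10 term of 0.25 ± 0.23 (adjusted p = 0.63). Vcam1 lost its call without WT day 0 replicate 1, at -1.34 and an adjusted p of 0.0531. Without the 2 libraries it was -1.29 (adjusted p = 0.0531). Cd44, a hyaluronan receptor, and Cdkn1a, a cell cycle inhibitor, were called at -2.77 ± 0.52 (adjusted p = 0.00866) and -2.14 ± 0.43 (adjusted p = 0.0101). Havcr1, the kidney injury molecule of proximal tubules, rose by 7.32 ± 0.33 (adjusted p = 3.32e-12) in WT and by 7.48 ± 0.33 (adjusted p = 2.63e-12) in KO, with an interaction of 0.16 ± 0.36 (adjusted p = 0.864). Havcr1 stood at 4.06, 6.8, 7.18 and 4.3 CPM in replicates 1 to 4 of WT day 0 and at 3.87, 5.61, 4.42 and 3.74 CPM in KO day 0, then at 615, 1337, 787 and 844 CPM in WT day 10 and 756, 633, 864 and 895 CPM in KO day 10. The day 10 ranges overlapped.

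The listed matrix and tubule genes gave almost no called interactions. All 17 listed collagen genes rose in WT (beside 37.8% of all genes) and all 17 in KO (28.3%). Of these 17, 0 had a called interaction by edgeR, 4 an unadjusted p under 0.05 and 0 a DESeq2 call. Col24a1, a collagen gene outside the list, had a called interaction of -2.50 through the day 10 term only. Col1a1, the main fibrillar collagen chain, had an interaction of -0.74 ± 0.59 (adjusted p = 0.583), and Col3a1 one of -0.95 ± 0.62 (adjusted p = 0.489). Col1a1 was at 25.5, 34.1, 48.9 and 43.5 CPM in WT day 0 and 54.5, 44.5, 31.2 and 41.4 CPM in KO day 0. After obstruction Col1a1 was at 779, 2862, 1245 and 387 CPM in WT and 1094, 869, 983 and 607 CPM in KO. WT day 10 replicates 2 and 3 were above the KO range and WT replicate 4 was below it. Without WT day 10 replicates 2 and 3 the interaction had the other sign in both, 0.41 for Col1a1 and 0.24 for Col3a1, and was called in neither. Fibronectin (Fn1) and smooth muscle actin (Acta2) had interactions of -0.68 ± 0.53 (adjusted p = 0.576) and 0.07 ± 0.51 (adjusted p = 0.964), and that of Fn1 was 0.36 without the 2 libraries. Tgfb1, the fibrosis cytokine, had one of -0.69 ± 0.29 (adjusted p = 0.241). Of 16 fibroblast genes 0 were called by edgeR in the interaction, 9 at an unadjusted p under 0.05 and 4 by DESeq2.

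Of 24 proximal tubule genes, 23 fell in WT (beside 30.3% of all genes) and 21 in KO (26%), and 0 had a called interaction, 0 an unadjusted p under 0.05 and 0 a DESeq2 call. The median response was -3.01 in WT and -2.35 in KO. Of 18 fatty acid oxidation genes all fell in both genotypes, and 0 had a called interaction by edgeR or DESeq2, with 2 at an unadjusted p under 0.05. Of 22 genes of later nephron segments (loop, distal tubule and collecting duct) 20 fell in WT and 18 in KO, with 0 called interactions by either tool and 1 at an unadjusted p under 0.05. Of 18 cell cycle genes 17 rose in each genotype, with the same counts of 0 and 1 for the interaction. A p that misses the threshold does not show that the genotypes responded alike in these lists. Nuclear-retained RNAs and splicing kinases, a sign of RNA quality, had 0 called interactions by either tool and 0 of 13 at an unadjusted p under 0.05.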

How the data were processed

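The authors deposited raw counts per gene and, in a second table, FPKM per gene for 24 mouse kidney libraries. TRIzol-extracted total RNA went into TruSeq stranded mRNA libraries for a NextSeq500, per the labels' protocols. Per the submitters' processing notes, bcl2fastq 2.16, STAR 2.5, Cufflinks and the mm9 build were used; the counting tool, annotation and strand setting are not given in the sources used here, so overlapping genes and near-identical copies cannot be told apart.

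The deposited counts were analysed with edgeR 4.0.16 in R 4.3.3. Genes were kept by filterByExpr on the 6 groups (minimum count 10, minimum total 15), libraries were scaled by TMM, and 1 robust quasi-likelihood model was fitted to the 24 libraries, with a mean for each of the 6 groups and 18 residual degrees of freedom, the day 5 groups entering the shared spread only. Benjamini-Hochberg adjustment ran over the 15080 genes in each of 5 comparisons, with a threshold of 0.05. The SE is the log2 difference divided by the square root of F. Depth sets the precision of low genes, so a floor of 3 counts over a group is used where a group is at 0. The alternatives were RLE factors, every gene without a filter on low counts, genes at 1 CPM or more in 4 or more libraries, the DESeq2 1.42.0 Wald test, limma 3.58.1 with voom and sample quality weights, limma on the FPKM the authors deposited (log2 with 1 or 0.1 added, for genes reaching 1 FPKM in 4 libraries, or with 1 added and unfiltered), only the 4 groups, a replicate block, and the omission of each of the 16 libraries.

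The members and the 39 gene lists were chosen with earlier results of these data known. Named genes are Pld4, Elane (not tested, too few counts), Serpina1a, Col1a1, Col3a1, Fn1, Acta2, Tgfb1 and Havcr1, the 10 called genes with the largest interaction in each direction and the 5 in each direction within each source (mean log2 CPM of at least 1, no placeholder symbol), and up to 4 called members of each list with the lowest p. Genes outside this rule are named as list members with a called interaction. In addition the 6 genes with opposite responses, the 3 with the lowest adjusted p (Ptpru, Clec4a3 and Serpina10), Col24a1, Xist and the Y-linked genes were chosen after their values were seen. Of the named genes, 1 enters the counts and is not reported here. The labels give the same replicate numbers in each group without saying what a number shares. Deviations from group means correlated between same-numbered KO and WT day 10 libraries at 0.141 to 0.306, over 0.1 in all 4 pairs, which was not so in the other 3 comparisons of 2 groups. The highest correlation was with the same number for KO day 10 replicates 2 and 4, and with another number for replicates 1 and 3. The numbers are thus not shown to be pairs, and the block is given beside the day 10 counts as an alternative. Promoter windows are from RefSeq (GRCm38.p6), another build than the files', and were matched by symbol for 11253 of the 15080 genes.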

Additional observations from a re-analysis of the deposited data

Results flagged for a closer look

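The response to obstruction differed between the genotypes in 490 genes by the test of the interaction itself. In 6 genes the response was called in opposite directions, up in WT and down in KO. The interaction was -1.82 for Ptpru, -12.4 for Hdc, -2.29 for Arntl, -0.70 for Npr1, -1.42 for Esm1 and -2.34 for Adssl1, each called by edgeR's quasi-likelihood test.

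Of 364 gene and group combinations examined (91 genes, 4 groups of 4), 16 held a library that stood apart from the other 3 by Dixon's 95% criterion for 4 samples, and chance flags about 1 in 20. In WT day 10, Acta2 was high in replicate 2 (408 CPM), Loxl1 in replicate 2 (113 CPM) and Cd4 in replicate 3 (31.4 CPM). In KO day 0, replicate 4 was high for Hdc (71.5 CPM) and Mmp9 (1.64 CPM), and replicate 3 was low for Ctss (40.6 CPM) and Loxl1 (12.1 CPM). In WT day 0, replicate 1 was low for Birc3 (6.31 CPM) and C1qc (8.3 CPM). Replicate 3 was high for Mmp9 (0.359 CPM, the others 0.255 to 0.259 CPM) and Serpina6 (0.0897 CPM, the others 0 CPM). These last values rest on very few counts. In KO day 10, replicate 4 was high for Ccl5 (45.3 CPM) and Ptafr (8.08 CPM) and low for Adssl1 (3.47 CPM), replicate 3 was low for Mmp13 (1.51 CPM) and replicate 1 low for Pilra (3.7 CPM).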

How the results depend on the processing

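The counts of the WT response (8628 to 12238 over all settings) and the KO response (7126 to 10867) stayed within 1.5 times of the reported counts in every setting run. The interaction count of 490 became 849 with DESeq2, 282 with limma voom and quality weights, 1 on log2(FPKM + 1), 161 on log2(FPKM + 0.1), 4 on unfiltered log2(FPKM + 1), 2 with only the 4 groups, and 153 without WT day 10 replicates 2 and 3, and ran from 246 to 1808 with 1 library left out. The day 10 count of 212 became 473, 5, 41, 25, 72, 8 and 69 in the same order, and 23 to 2045 with 1 library left out. The day 0 count of 630 became 975, 1997, 361, 841, 318, 395 and 1274, and 296 to 852. The share of called genes with the larger day 0 term, 71.0%, became 64.0%, 95.7%, 100%, 92.5%, 100%, 100% and 99.3%, and 39.1% to 84.5%. With the replicate block these 4 values were 431, 19, 638 and 80.3%, and the WT and KO responses 10307 and 8311. The cause of these moves was not tested, except that fewer libraries or genes enter some fits. Of 85 named genes with a called interaction, none changed sign in any setting; 85 were called with DESeq2, 80 with RLE factors, 43 with voom, 2 with only the 4 groups, 1 on log2(FPKM + 1), 65 with the block and 36 without the 2 WT day 10 libraries. The sign changed only in genes with no called interaction: Fn1 (0.028 with voom, 0.36 without WT day 10 replicates 2 and 3, and -0.96 to 0.026 with 1 library left out, above 0 only without WT day 10 replicate 2), Col1a1 (0.41) and Col3a1 (0.24) without both, and Acta2 (-0.15 to 0.61 with 1 library left out, below 0 without WT day 0 replicate 3, WT day 10 replicates 1, 3 or 4, or KO day 10 replicate 3). Same-numbered libraries did not deviate together in the WT response, the KO response or the day 0 comparison. Depth limits genes with few counts at day 0, such as Ccl7, Serpina6 and Serpina1c.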
